A study of Mus musculus with 7 samples.

Results

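The serpins are a family of protease inhibitors and relatives that share 1 fold, and 47 of the 19933 genes measured in these livers belong to it here. Members were the genes whose symbol starts with Serpin and that had a row of their own in the deposited table, with Serpina7 left out by the selection rule. Each member had exactly 1 such row. They fall into 9 clades by the letter after Serpin, with 14 genes in clade A, 24 in clade B, 2 each in clades F and I and 1 each in clades C, D, E, G and H. Several serpins are clustered, closely similar paralogs, and their probes may cross-hybridise. Rows that carry the symbols of several serpins were kept apart.

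RNA of 7 liver samples was hybridised to Affymetrix Mouse Gene ST arrays, 1 array each. The mice were C57BL/6 males of 4 months, fed ad libitum on chow and sampled at 5 pm (ZT10, 10 h into the light-dark cycle) 2 weeks after virus injection. The knockout group (3 arrays) received AAV-Cre, an adeno-associated virus with Cre recombinase, and the rescued group (4 arrays) received the same AAV-Cre together with AAV-Flag-HDAC3, which encodes the wild-type histone deacetylase. The titles call the latter samples WT liver, although they too received AAV-Cre, and they are called rescued here. Both groups therefore carry the Cre virus, the rescued group also carries a further vector, and no uninjected liver was analysed here. The targeted allele and the promoters of the vectors are not given in the sources used here. The comparison asks which serpin transcripts differ between livers given Cre alone and livers given Cre with HDAC3.

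An inhibitory serpin offers a flexible loop to its target protease as bait. Once the protease cuts the loop, the serpin snaps into a new shape and holds the enzyme in a covalent complex, so that both are used up. Hepatocytes secrete most of the serpins of blood plasma, which control clotting, fibrinolysis, complement and leukocyte elastase, while most clade B serpins stay inside cells and some members, such as hormone carriers and a collagen chaperone, inhibit no protease.

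Values are log2 intensities, differences are knockout minus rescued, and a gene is called when the adjusted p of limma's moderated test, taken over all 19933 genes, is under 0.05. Hdac3 itself lay at 8.93, 8.75 and 9.08 on the knockout arrays and at 9.23, 9.45, 9.55 and 9.38 on the rescued arrays (difference -0.48, adjusted p = 0.0124 in limma's test), a call lost when knockout replicate 1 was left out. It was thus 1.40-fold lower and still above background in the knockout livers, so this value does not by itself show a loss of Hdac3. No source used here says which part of the transcript its probes read, or whether they read the vector. The labels call the arrays biological replicates. Every knockout array had a higher median intensity (105.01 to 110.85) than every rescued array (96.29 to 102.33), and this offset lies among dim rows. The median difference over all genes was 0.09, and it was 0.14 for genes below the median level and 0.00 for the others. A level was taken as above background when its group mean passed the 95th percentile of 1194 olfactory and vomeronasal receptor genes, at 6.30 in knockout and 6.14 in rescued livers. In bulk liver, fewer cells of a type and less RNA per cell cannot be told apart, and the number of arrays limits the precision.

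Of the 47 serpins 5 were called, 2 higher and 3 lower in the knockout livers. Serpind1, Serpina11 and Serpina9 fell, and Serpinb6b and Serpinb9d rose. That is 10.6% of the family, where 14.4% of all genes were called, 9.54% of them higher and 4.85% lower. The family as a whole was therefore not called more often than the array. In 10 members every knockout array lay above every rescued array and in 4 every one lay below, which is 21.3% and 8.5% of the family, against 21.0% and 8.56% of all genes. An unadjusted p under 0.05 was reached by 16 members (34.0%) and by 35.7% of all genes. Among the 14 members at or above the median level none rose and 2 fell, where 9.09% and 8.73% of such genes did. Among the 33 members below it 2 rose and 1 fell, where 9.98% and 0.963% did. The family's median difference was 0.10, close to that of all genes. After the arrays were rescaled by quantile normalization, median centring or cyclic loess, it was -0.00, 0.01 and -0.01. Serpind1, Serpina9 and Serpinb6b were called with the same sign in all 3 rescalings as well as in the values as deposited, 1 higher and 2 lower in all. Of all genes 6.67% passed that way, 2.61% higher and 4.06% lower.

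**Figure D1:**
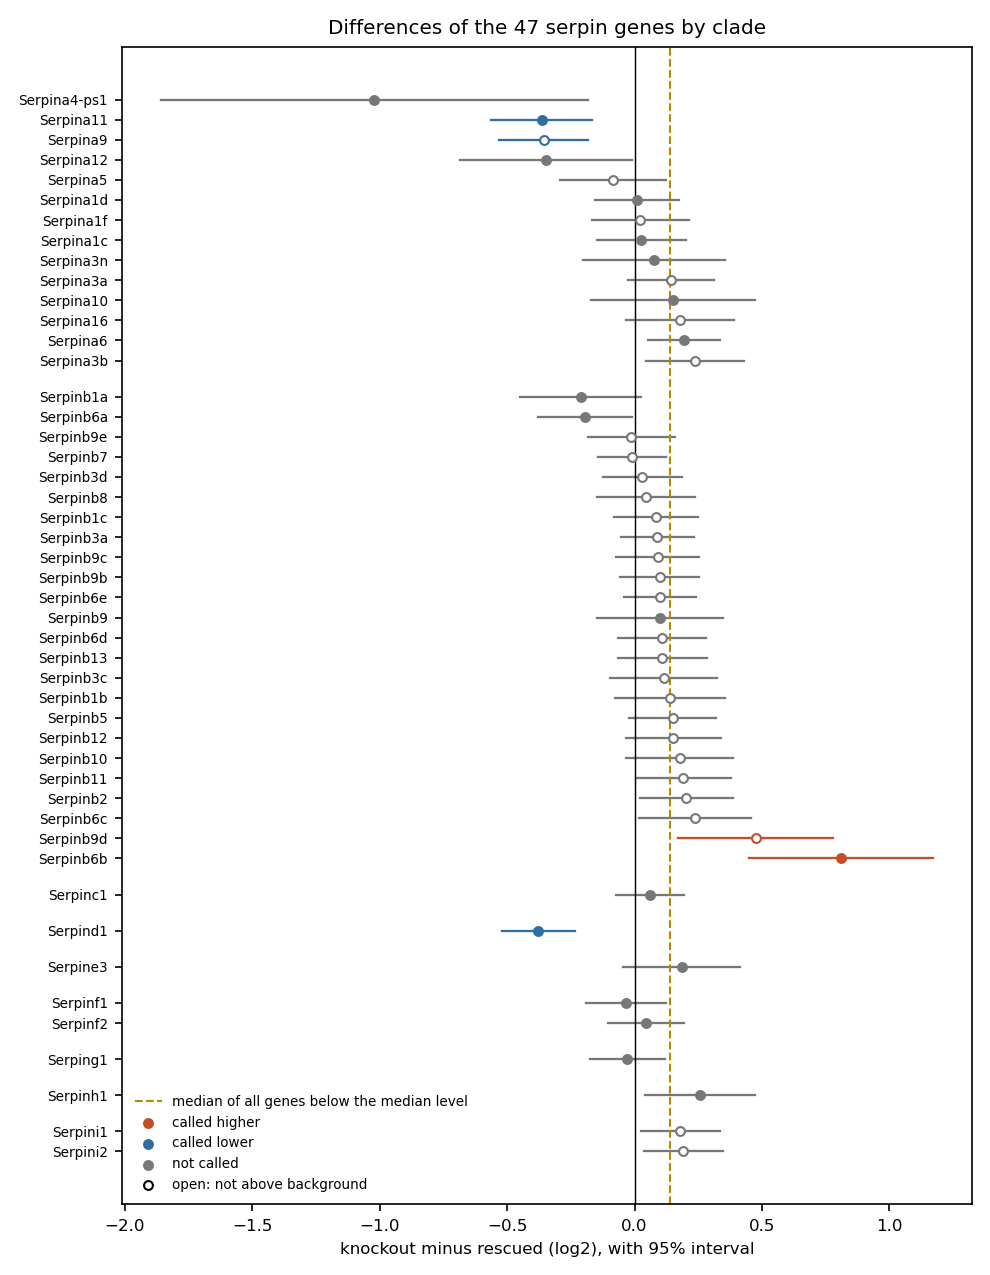
Difference between knockout and rescued livers (log2, horizontal axis) for each of the 47 serpin genes, grouped by clade, with limma's 95% interval. Filled points are above background and open points are not. Most open points of clade B sit near the dashed line, which marks the median difference of 0.14 of all genes below the median level, while Serpind1 and Serpinb6b stand away from 0 on either side.

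The 5' flanks of 3 called members are shown because these genes differed in opposite directions and had a start site in the RefSeq promoter table of GRCm38.p6. Each run is the 250 bases before the annotated start, 5' to 3' on the strand of the gene. Capitals mark matches on either strand to AGGTCA, the hexamer bound by many nuclear receptors, to TTCNNNGAA, the element bound by STAT proteins, or to TATAAA, the TATA box. The motifs were chosen with the results known. Serpind1 is at chr16:17331121-17331370 on the plus strand, Serpina11 (the more upstream of its 2 starts) at chr12:103989958-103990207 on the minus strand, and Serpinb6b at chr13:32965011-32965260 on the plus strand.
Serpind1: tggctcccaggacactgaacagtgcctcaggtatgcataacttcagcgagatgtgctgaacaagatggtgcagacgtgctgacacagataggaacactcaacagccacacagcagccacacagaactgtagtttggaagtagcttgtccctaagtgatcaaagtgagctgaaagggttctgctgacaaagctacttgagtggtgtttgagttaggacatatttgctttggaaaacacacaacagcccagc
Serpina11: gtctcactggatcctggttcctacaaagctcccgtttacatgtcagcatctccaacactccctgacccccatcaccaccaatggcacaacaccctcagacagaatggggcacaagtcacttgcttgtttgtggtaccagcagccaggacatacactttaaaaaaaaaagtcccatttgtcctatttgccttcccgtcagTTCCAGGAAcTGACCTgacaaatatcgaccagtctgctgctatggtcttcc
Serpinb6b: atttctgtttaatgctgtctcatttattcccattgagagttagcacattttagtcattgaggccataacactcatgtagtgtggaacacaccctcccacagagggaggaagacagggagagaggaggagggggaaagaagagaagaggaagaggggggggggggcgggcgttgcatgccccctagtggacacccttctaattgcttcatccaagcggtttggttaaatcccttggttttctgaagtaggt

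The Serpina11 flank holds a STAT element, TTCCAGGAA, at bases -51 to -43 and the nuclear receptor hexamer, as TGACCT, at -41 to -36, with 1 base between them. The flanks of Serpind1 and Serpinb6b hold none of the 3 motifs in these windows. The flank of Serpinb9d, whose rise is described further on, holds TGACCT at -223 to -218. Among all 32851 RefSeq promoters of this length 14.02% hold the hexamer, 7.02% the STAT element and 12.4% the TATA box. Of 47 promoters of 40 matched serpins, 16 (34.0%) hold the hexamer, 6 (12.8%) the STAT element and 12 (25.5%) the TATA box. Starts of 1 gene and neighbouring paralogs share sequence, so these promoters are not independent of each other, and a match is a description of letters and not a site.

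Among the serpins that control clotting, heparin cofactor II fell and antithrombin was not called. Serpind1 encodes heparin cofactor II, which inhibits thrombin in the presence of dermatan sulfate or heparin. Its level (probe set 10433988) was 12.02, 11.95 and 12.02 on the knockout arrays and 12.43, 12.31, 12.36 and 12.41 on the rescued arrays. The spread within the groups was small (SD 0.04, n = 3, and 0.05, n = 4), and every knockout array was lower than every rescued array. Serpind1 fell by 0.38 on the log2 scale (SE 0.07), a 1.3-fold change with adjusted p = 0.00666 in limma's test. Serpind1 was the only serpin called under each rescaling of the arrays and with each array left out in turn, where the difference ranged from -0.40 to -0.36.

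Serpinc1 encodes antithrombin, the main heparin-dependent inhibitor of thrombin and factor Xa. It lay at 12.90, 12.90 and 12.87 in knockout and 12.85, 12.84, 12.82 and 12.79 in rescued livers. All knockout arrays were higher in these values, but only slightly, and the difference was not called at 0.06 with a 95% interval of -0.07 to 0.20. It turned to -0.03 after median centring. Serpina10 encodes the protein Z-dependent inhibitor of factor Xa. It was at 9.86, 10.04 and 10.59 in knockout and 9.82, 10.09, 10.06 and 10.06 in rescued livers, so the groups overlapped and 1 knockout array, replicate 3, stood above all others. Its difference of 0.15 was not called, and without that array it was -0.06.

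C1 inhibitor and alpha-2-antiplasmin, the main plasma serpins of complement and fibrinolysis, were not called. Serping1 encodes C1 inhibitor, which blocks the complement proteases C1r and C1s as well as plasma kallikrein. It was at 12.63, 12.70 and 12.73 in knockout and 12.66, 12.77, 12.69 and 12.75 in rescued livers, a difference of -0.03 with a 95% interval of -0.18 to 0.12, and of -0.12 after median centring. Serpinf2 encodes alpha-2-antiplasmin, the main plasmin inhibitor. It was at 12.22, 12.13 and 12.31 against 12.17, 12.15, 12.19 and 12.18, with a difference of 0.05 and an interval of -0.10 to 0.19. Its neighbour Serpinf1 encodes PEDF, a secreted serpin that inhibits no protease. The levels were 12.27, 12.19 and 12.06 in knockout and 12.14, 12.21, 12.22 and 12.26 in rescued livers, with a difference of -0.03.

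The alpha-1-antitrypsin paralogs were not called either. Alpha-1-antitrypsin is the main plasma inhibitor of neutrophil elastase, and in mice it is encoded by several nearly identical genes. Serpina1c was at 13.17, 13.18 and 13.02 in knockout and 12.98, 13.22, 13.02 and 13.15 in rescued livers. Serpina1d was at 12.52, 12.51 and 12.38 against 12.36, 12.45, 12.44 and 12.59. The groups overlapped for both, and the differences were 0.03 and 0.01 with 95% intervals of -0.15 to 0.20 and -0.16 to 0.18. Of the 14 serpins at or above the median level, 12 were not called, and 7 of these differed by less than 0.1 in size. The 7 are Serpina1c, Serpina1d, Serpina3n, Serpinc1, Serpinf1, Serpinf2 and Serping1. Their differences ran from -0.03 to 0.07, and the sign turned under at least 1 rescaling for those of Serpina1c, Serpina1d, Serpina3n, Serpinc1 and Serpinf2.

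**Figure D2:**
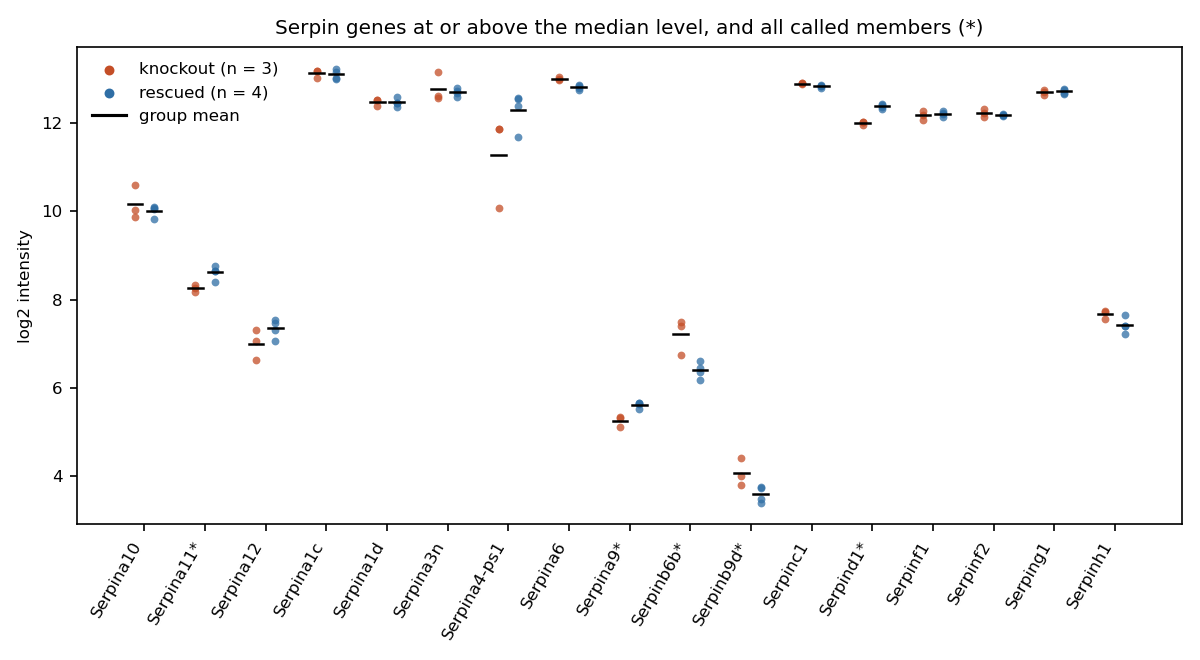
Log2 intensity (vertical axis) of the 14 serpin genes at or above the median level of all genes and of the other 3 called members, in alphabetical order. Points are arrays, black lines are group means and stars mark called genes. The 3 knockout points of Serpind1 lie below all 4 rescued points, while those of Serping1 and Serpinf1 overlap them, and the knockout points of Serpina4-ps1 and Serpina3n are widely spread.

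Serpina6 encodes corticosteroid-binding globulin, the plasma carrier of glucocorticoids. It was at 12.97, 13.00 and 13.03 in knockout and 12.74, 12.83, 12.85 and 12.79 in rescued livers. All knockout arrays lay above all rescued arrays with little spread, yet the difference of 0.19 (SE 0.06, 1.14-fold) did not pass, with adjusted p = 0.0626 in limma's test. It passed among genes at or above the median level only (adjusted p = 0.0491 in limma's test) and with a trended, robust variance (0.0282), and after rescaling the difference shrank to between 0.10 and 0.12.

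In the clade A cluster 2 members fell, Serpina11 and Serpina9, and they are neighbours. Of the 14 clade A genes 14.3% were thus called lower and none higher, beside 4.85% and 9.54% of all genes. Of these 14 genes 8 lie at or above the median level, where 8.73% of all genes were lower and 9.09% higher. Below that level, where Serpina9 lies, 0.963% were lower and 9.98% higher. In the RefSeq order of GRCm38.p6, Serpina11, Serpina9 and Serpina12 follow each other directly, and Serpina4-ps1 comes next but for 1 gene without a serpin name. Serpina11 (probe set 10402415) was at 8.25, 8.18 and 8.33 in knockout and 8.65, 8.64, 8.77 and 8.40 in rescued livers. All knockout values were lower, with a difference of -0.36 (SE 0.09, 1.29-fold) and adjusted p = 0.0267 in limma's test. This call was lost after quantile normalization (adjusted p = 0.0673 in limma's test) and cyclic loess (0.0587). Leaving out any of knockout replicates 1 and 2 and rescued replicates 2 and 3 also ended it, although the difference stayed between -0.36 and -0.31.

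Serpina9, known as centerin from germinal centre B cells, was at 5.35, 5.33 and 5.11 in knockout and 5.65, 5.65, 5.66 and 5.52 in rescued livers (probe set 10402422). Here too the groups did not overlap, and the difference was -0.36 (SE 0.08) with adjusted p = 0.0182 in limma's test. Against the receptor genes its group means stood at percentiles 77.2 and 88.4, not above background, so no fold is given. The fall grew to -0.50 after quantile normalization (adjusted p = 0.00337 in limma's test), and the call was lost without rescued replicate 2 (0.0513) or 3 (0.0559). Of 4 measured B cell markers none was called, and 3 of them were not above background. Their summed intensity was 226.9 to 258.4 in knockout and 216.2 to 241.9 in rescued livers.

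Serpina12 encodes vaspin, a secreted inhibitor of a tissue kallikrein. It was at 7.31, 7.05 and 6.63 in knockout and 7.46, 7.06, 7.31 and 7.54 in rescued livers. The groups overlapped, and the difference of -0.35 was not called (adjusted p = 0.130 in limma's test). Serpina4-ps1 is a transcribed pseudogene related to kallistatin. On the knockout arrays it was at 10.07, 11.87 and 11.87, and on the rescued arrays at 12.53, 12.39, 12.56 and 11.67. The rescued array at 11.67, replicate 4, fell below 2 of the knockout arrays, and knockout replicate 1 stood far below the rest. The difference of -1.02 (SE 0.38), the largest of the family in size, was not called (adjusted p = 0.0867 in limma's test), and without knockout replicate 1 it was -0.42.

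On either side of this stretch no member was called. Serpina5, protein C inhibitor, is the next gene and was not above background. Its difference was -0.08, and -0.23 after quantile normalization. Serpina10, Serpina6 and Serpina16 at one end of the cluster had differences of 0.15, 0.19 and 0.18. The Serpina1 genes between them and Serpina11 had differences of 0.01 to 0.03. Serpina3a, Serpina3b and Serpina3n at the other end had 0.14, 0.24 and 0.07. Of these flanking genes Serpina16, Serpina1f, Serpina3a and Serpina3b were not above background, and the offset described above lies among such dim rows. After quantile normalization their differences were 0.04, -0.12, -0.00 and 0.09. Whether neighbours differ from each other was not tested.

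**Figure D3:**
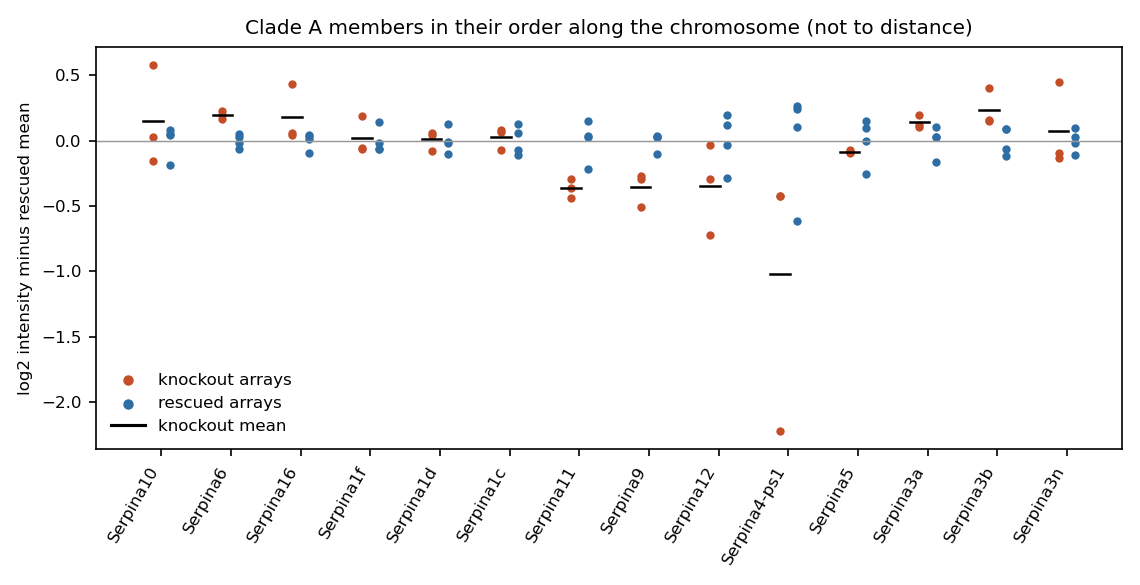
The 14 clade A members in their order along the chromosome in GRCm38.p6 (horizontal axis, order only), with the log2 intensity of each array minus the mean of the rescued arrays (vertical axis). Black lines are knockout means. The means of Serpina11, Serpina9, Serpina12 and Serpina4-ps1, from -0.35 to -1.02, are below those of all other members, and 1 knockout array sets much of the mean of Serpina4-ps1.

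Serpina3n, a secreted antichymotrypsin-like serpin of the acute phase response, was not called, and 1 array stood apart. It was at 12.60, 12.57 and 13.15 in knockout and 12.59, 12.68, 12.72 and 12.80 in rescued livers. Knockout replicate 3 was the highest array and the other 2 knockout arrays lay within or below the rescued range. The same array held the highest Serpina10 value. Some acute phase genes were also highest there. Saa2, a serum amyloid, was at 12.11 on that array against 7.92 and 9.11 on the other knockout arrays and 7.21 to 8.69 on the rescued arrays. The lipocalin-2 gene Lcn2 was at 11.39 there, against 7.90 to 9.71 on the other 6 arrays. The summed intensity of 17 acute phase genes was 88219.2 on that array and 61498.7 to 70537.2 on the others. Among these 17 genes, Saa3, Saa4 and Cp were not highest on that array. Saa3 was at 7.49 there, inside the rescued range of 7.18 to 8.04. Without knockout replicate 3 the difference of Serpina3n went from 0.07 to -0.11. The part of the acute phase in these 2 serpins was not tested.

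Of 24 clade B serpins, which act mostly inside cells against leukocyte and lysosomal proteases, 2 rose and none fell. That is 8.3% higher, beside 9.54% of all genes and 9.98% of those below the median level. The larger rise was that of Serpinb6b (probe set 10404422), a paralog of the intracellular inhibitor gene Serpinb6a. It was at 7.40, 7.50 and 6.74 on the knockout arrays and at 6.61, 6.18, 6.36 and 6.46 on the rescued arrays. All knockout values were higher, and knockout replicate 3 was close to the rescued range. The difference was 0.81 (SE 0.16), 1.76-fold, with adjusted p = 0.0131 in limma's test, and it was 0.71 to 0.72 after the rescalings with all 3 called. Left-out arrays gave 0.67 to 1.05, and the call was lost only without knockout replicate 1 (adjusted p = 0.0695 in limma's test). Its level was above background in both groups.

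Markers of other cells are given beside it. Of 8 T and NK cell markers none was called and 5 were not above background, with a summed intensity of 503.5 to 525.0 in knockout and 442.5 to 486.0 in rescued livers. Of 8 Kupffer cell and macrophage markers none was called either, and their sums overlapped at 2988.7 to 3422.7 and 2367.0 to 3390.0. Of 8 neutrophil markers 1 was called higher, Elane, and the sums were 458.4 to 546.4 against 410.9 to 429.0. In the squamous epithelium list 1 of 5 genes was called higher, Krt14, at sums of 349.9 to 396.8 against 315.0 to 337.3. Elane and Krt14 were called in none of the 3 rescalings. Of 5 cholangiocyte markers none was called as deposited, at sums of 532.5 to 603.4 against 463.0 to 510.6, and Sox9 passed after quantile normalization (adjusted p = 0.0406 in limma's test) and cyclic loess (0.0433). The mast cell gene Cpa3 (difference 0.26, not above background) and the stellate cell gene Lrat (0.32) were called higher, while the sums of their lists overlapped. Of 4 platelet markers none was called, and of 8 endothelial markers 1 was called lower, Clec4g (-0.29). The sums of both lists overlapped. In the testis and germ cell list 1 of 5 genes was called higher, Ddx4 (0.37), and the sums overlapped. Ddx4 was not above background, yet it was called in all 3 rescalings too. These marker counts stand beside 9.54% of all genes called higher and 4.85% lower. Below the median level 9.98% of genes were called higher. The T and NK cell, neutrophil, squamous and cholangiocyte sums were higher on every knockout array than on any rescued array. Most of these markers lie below the median level, where the offset described above lies. Some, such as Sox9, lie at or above that level, where the median difference of all genes was 0.00. The part of the offset in these sums, and that of these cells in the rise of Serpinb6b, were not tested.

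Serpinb9d, a paralog of the granzyme B inhibitor gene Serpinb9, was at 4.42, 4.01 and 3.80 in knockout and 3.76, 3.41, 3.48 and 3.74 in rescued livers (probe set 10404452). The groups just failed to overlap, and the difference was 0.47 (SE 0.14) with adjusted p = 0.0446 in limma's test. Its group means stood at receptor percentiles 34.4 and 19.6, so no fold is given. The call was lost after each rescaling, with adjusted p = 0.0674 to 0.0834 in limma's test. It also ended when knockout replicate 1 or 2, or rescued replicate 2, 3 or 4, was left out. The rows that carry the Serpinb9d symbol together with those of its paralogs were not called. Serpinb9 itself, which protects lymphocytes from their own granzyme B, was at 6.47, 6.71 and 6.78 against 6.52, 6.29, 6.70 and 6.72 and was not called (difference 0.10).

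Serpinb6a, which encodes an inhibitor of cathepsin G, was at 6.46, 6.52 and 6.32 in knockout and 6.54, 6.73, 6.72 and 6.52 in rescued livers. Its knockout values were the lower ones, opposite to those of Serpinb6b, and the difference of -0.19 was not called as deposited. After quantile normalization it was -0.32 (adjusted p = 0.0433 in limma's test), after cyclic loess also -0.32 (0.0455) and after median centring -0.28 (0.0526). Serpinb1a, which encodes the leukocyte elastase inhibitor, was at 5.84, 5.85 and 6.21 against 6.26, 6.00, 6.12 and 6.33, with overlapping groups and a difference of -0.21 that was not called. Only these 4 clade B genes, Serpinb6b, Serpinb9, Serpinb6a and Serpinb1a, were above background in either group.

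The other 20 clade B genes were not above background. They include Serpinb5, the maspin gene of epithelia, and Serpinb3a, a mouse relative of the human squamous cell carcinoma antigen genes. Apart from Serpinb9d, their 19 differences ran from -0.01 to 0.24 and none was called. Serpinb6c had the largest, at 0.24. The clade's median was 0.10 as deposited, when 20 of 24 differences were above 0, and 0.00 after quantile normalization, when 13 were. All genes below the median level showed the same shift, from 0.14 to 0.01. Serpinb7, megsin, was at 3.06 on all 3 knockout arrays and on 2 of the rescued arrays, with 3.07 and 3.10 on the others, which is near the lowest values of the table.

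Among the remaining clades, Serpinh1 encodes HSP47, the collagen chaperone of the endoplasmic reticulum. It was at 7.71, 7.57 and 7.74 in knockout and 7.65, 7.39, 7.41 and 7.21 in rescued livers. Only rescued replicate 1 reached the knockout range. The difference of 0.26 was not called (adjusted p = 0.0929 in limma's test), and without rescued replicate 1 it was 0.33 and called (0.0306). Of 14 genes of collagen and its modification 2 were called higher, Col6a1 (difference 0.30) and P4hb (0.26), neither of them in all 3 rescalings, against 9.54% of all genes. Serpine3 was at 6.43 to 6.86 in knockout and 6.31 to 6.58 in rescued livers and was not called. Serpini1, neuroserpin, and Serpini2 were not above background, with differences of 0.18 and 0.19 as deposited and of 0.05 to 0.10 after the rescalings. Angiotensinogen is a serpin by fold under the symbol Agt. It was at 12.50, 12.47 and 12.53 in knockout and 12.41, 12.33, 12.38 and 12.33 in rescued livers, a difference of 0.14 that was not called (adjusted p = 0.149 in limma's test).

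**Figure D4:**
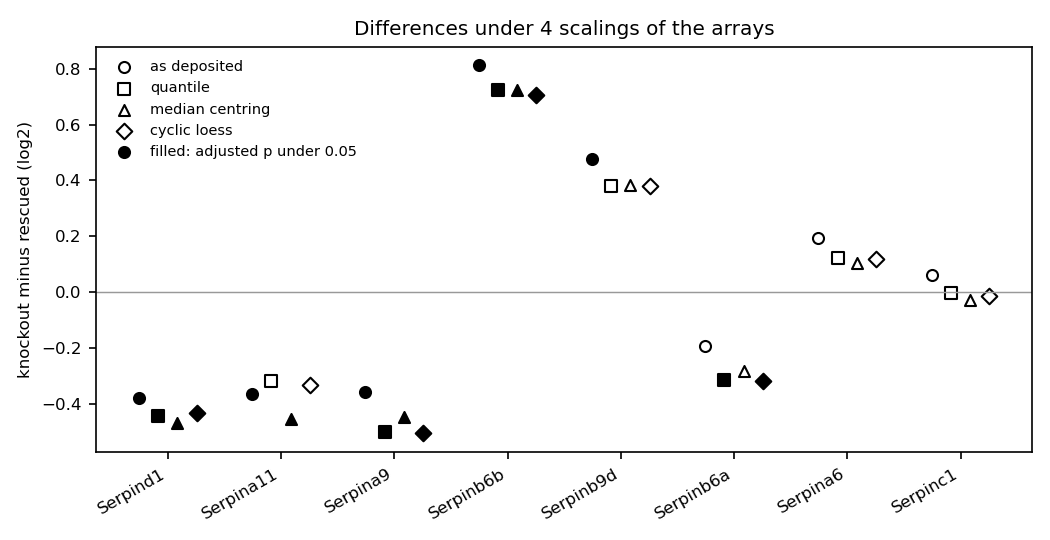
Difference between knockout and rescued livers (log2, vertical axis) of the 5 called serpins and of Serpinb6a, Serpina6 and Serpinc1, in the values as deposited and after 3 rescalings of the arrays. Filled symbols have an adjusted p under 0.05. Serpind1, Serpina9 and Serpinb6b are filled in all 4, Serpinb9d only as deposited, and Serpinc1 crosses 0.

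Several proteases that plasma serpins inhibit were lower in the knockout livers while Serpinc1 and Serping1 were not called. Of 11 measured proteases of clotting, fibrinolysis and contact activation 4 were called lower and none higher, and of 5 complement proteases 4 were lower and none higher. Beside them 4.85% of all genes were lower, and 8.73% of genes at or above the median level, where all but Plat and Plau of these proteases lie. The clotting zymogen gene F11 fell by 0.73 on the log2 scale (adjusted p = 0.00768 in limma's test), F9 by 0.46 (0.00464), F10 by 0.33 (0.0273) and the anticoagulant Proc by 0.32 (0.0222). C1s1 fell by 0.75 (adjusted p = 0.00122 in limma's test), from 10.32, 10.56, 10.64 and 10.72 in rescued to 9.74, 9.84 and 9.85 in knockout livers. Masp2, of the lectin pathway, fell by 0.65, C1ra by 0.38 and C1rl by 0.27. The call of C1rl was lost with any array left out, those of F10, Proc and C1ra with some, and C1rl was not called in all 3 rescalings.

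The ratio of a protease transcript to its inhibitor on the same array is free of array offsets that act on both alike. It is given relative to the mean of the rescued arrays, for pairs chosen after the values were seen. For C1s1 over Serping1 it was -0.73, -0.71 and -0.73 on the knockout arrays and -0.18 to 0.13 on the rescued arrays. For F9 over Serpinc1 it was -0.63, -0.46 and -0.48 against -0.10 to 0.13. Both ratios were lower on every knockout array than on any rescued array. C1s1 and F9 themselves lay that way, so the ratios are no separate support for their falls. Thrombin's own gene F2 was not called (difference -0.09). Its ratio to Serpind1 was higher in knockout, at 0.29, 0.31 and 0.26 against -0.07 to 0.06, and its ratio to Serpinc1 was lower, at -0.14, -0.18 and -0.13 against -0.05 to 0.04. For F12 over Serping1 the groups overlapped. The ratios were not tested, and a shift in one does not say which of its transcripts differed. Protein levels were not measured here.

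**Figure D5:**
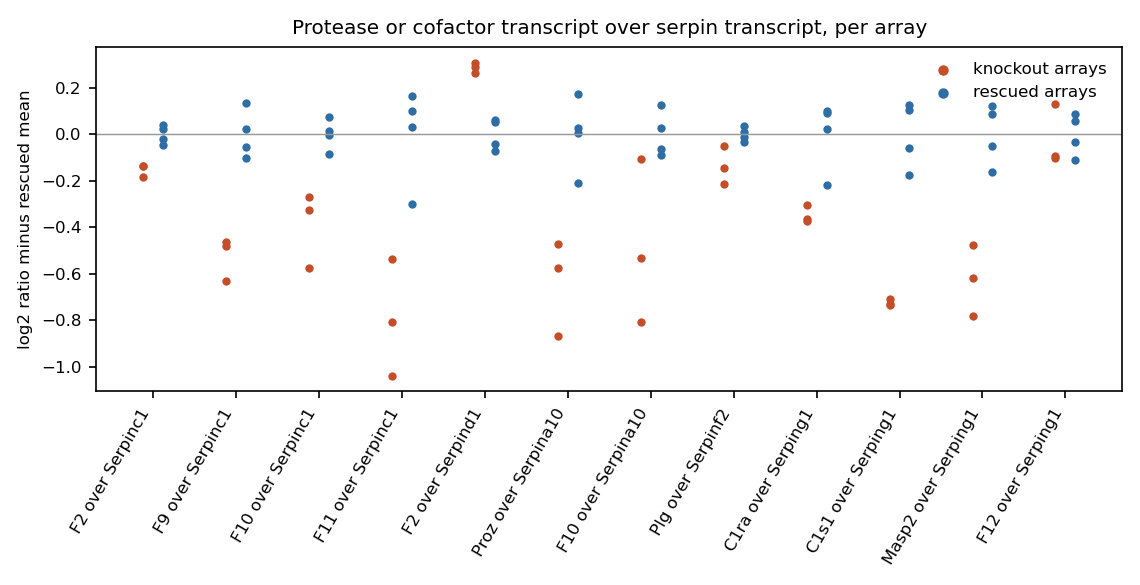
Log2 ratio of a protease or cofactor transcript to a serpin transcript on each array, minus the mean of the rescued arrays (vertical axis), for 12 pairs. The knockout points of C1s1 over Serping1 lie from -0.73 to -0.71, below all rescued points, those of F2 over Serpind1 lie above all rescued points, and those of F12 over Serping1 overlap them.

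Among 9 measured cofactors, receptors and cargo receptors, Proz fell and Plaur and Vldlr rose. Proz encodes protein Z, the cofactor of the Serpina10 inhibitor. It was at 10.21, 10.28 and 10.54 in knockout and 10.82, 10.71, 10.90 and 10.89 in rescued livers, a fall of 0.49 (adjusted p = 0.00933 in limma's test) called in all 3 rescalings. Plaur, the urokinase receptor gene, differed by 0.30 and the lipoprotein receptor gene Vldlr by 0.25. Neither was called in all 3 rescalings, and Vldlr was not above background. Of 14 proteases of leukocytes, lysosomes and membranes 3 rose and 1 fell. Both lists stand beside 9.54% of all genes called higher and 4.85% lower. Cathepsin L, Ctsl, rose by 0.52 on the log2 scale (adjusted p = 0.00192 in limma's test) and the membrane protease Tmprss6 fell by 0.33 (0.0152), both in all 3 rescalings. Prss8 (0.74, with overlapping arrays) and Elane (0.27) did not pass in all 3.

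Of 27 measured inhibitors that are no serpins, among them alpha-2-macroglobulins, kininogens and inter-alpha-trypsin inhibitors, 1 was called, Spint2, an inhibitor of membrane proteases (difference 0.23), beside 14.4% of all genes. It lost the call with any array left out. Of 16 genes of folding and degradation in the endoplasmic reticulum, where secreted serpins are checked, 1 was called, the lectin gene Os9, which fell by 0.38 (adjusted p = 0.0170 in limma's test) and lost the call without rescued replicate 3. Of 17 acute phase genes 2 were higher, Orm3 (difference 2.14) and Cp (0.24), beside 9.54% of all genes. Cp was called in none of the 3 rescalings and lost its call with any array left out.

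Of 16 measured regulators of liver serpin genes 4 were called higher and 3 lower, beside 9.54% and 4.85% of all genes. Socs2, a growth hormone-induced inhibitor of STAT5 signalling, fell by 1.29 on the log2 scale (adjusted p = 0.000995 in limma's test). Its highest knockout value was 9.40, and the rescued values reached 10.59 with no overlap. Stat5b and Stat5a, which encode the STAT5 factors, were higher by 0.75 and 0.59. The hepatocyte factor gene Onecut1 fell by 0.80, a call that needed both knockout replicate 1 and rescued replicate 3. These 4 were called in all 3 rescalings. Of 6 measured hepatocyte markers none was called, and their summed intensity was 59675.5 to 61865.8 in knockout and 60496.5 to 61129.3 in rescued livers.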

How the data were processed

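Liver RNA was extracted with Trizol, per the labels' protocols. Each array has 1 linear intensity per probe set in the authors' deposited table. RMA and the Partek software are named, with no version, in the submitters' processing notes. RMA subtracts background, quantile normalizes and summarises probes. The arrays differ in distribution, so the last scaling is unknown. No source used here gives the genome build of the array annotation.

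Rows were named by the platform annotation (21631 of 27541 rows had 1 symbol). The brightest row stood for each gene, and no dim gene was removed. Log2 values were fitted with limma 3.58.1 under R 4.3.3 (lmFit, then eBayes, two-sided, no covariates, Benjamini-Hochberg over 19933 genes). Alternatives were 3 rescalings, 2 level filters, other row and variance choices, a replicate block, other thresholds and each array left out. On simulated data for this comparison with 200 of 19933 genes changed, the fit recovered 64.2% at 1.3-fold, 98.5% at 1.5-fold and 100% at 2-fold, with 11 false calls; the simulated noise held no offset between arrays. Named are all called serpins, those at or above the median level, and up to 4 called genes of each list with the largest differences. Serpinb6a, Serpinb1a, Serpinb9, other dim members, uncalled partners, Saa2, Saa3, Saa4 and Lcn2 were named after their values were seen. The members and lists were chosen with earlier results of these data known. A comparison of serpin proteins was planned and not run. Figures used matplotlib 3.10.9.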

Additional observations from a re-analysis of the deposited data

Results flagged for a closer look

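In the rescued group of 4 arrays, 42 named genes were examined for 1 array far from the other 3, and 3 genes had a gap that takes up more of the group's range than Dixon's limit allows. Chance gives about 1 in 20 such groups. Serpina10 had its lowest rescued value in replicate 1, at 9.82, where the gap was 0.859 of the range. Serpina9 had its lowest in replicate 4, at 5.52 against 5.65 to 5.66 (0.9145 of the range). Vldlr, not above background, was at 5.97 in replicate 3 and at 6.04 on the other arrays (0.993).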

How the results depend on the processing

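The count of serpins called higher (2 as deposited) was 1 after quantile normalization, median centring and cyclic loess, with either level filter and with all rows in the adjustment. With the filter at the median level that 1 was Serpina6, since Serpinb6b lies below that level and was left out. Serpina9, called lower as deposited, was left out there too. Over all genes 1959, 2473 and 1941 were called after the 3 rescalings, beside 2867 as deposited. At a threshold of 0.01 in limma's test 0 serpins were called higher and 1 lower, beside 509 of the 19933 genes in either direction. At 0.1 the counts were 7 higher and 4 lower, beside 5528 genes. An unadjusted p under 0.05 was reached by 16 members (34.0%) and by 35.7% of all genes. With an array left out the count called higher ranged from 0 to 4 and that of lower members from 1 to 3. Between 897 and 3263 of all genes were then called. The serpin counts were 1 of each without rescued replicate 2 or 3, where 1200 and 948 genes were called. Added after seeing the data, the count called as deposited and in all 3 rescalings was 1 higher and 2 lower, and that of members above background 1 higher and 2 lower. The replicate block gave 2 higher and 4 lower, with Serpina4-ps1 added (-1.23, adjusted p = 0.0352 in limma's test), and 1938 instead of 2867 genes in all. Rescued replicate 4 has no partner and drops out of that difference, which is the one without that array. The replicate numbers are not shown to pair the arrays, since deviations of same-numbered arrays correlated at 0.151, 0.003 and 0.005. No difference of a called serpin changed sign under the alternatives run. Of the other settings, array weights, the mean of rows and the trended variance left the counts within 1.5 times. Dim levels limit most of clade B.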

Other observations

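Rows with several serpin symbols were not used for the family. The 2 rows that carry all 5 Serpina1 symbols from Serpina1a to Serpina1e were at 12.57 and 13.66 in knockout and 12.52 and 13.69 in rescued livers, with differences of 0.05 and -0.03 and adjusted p = 0.607 and 0.699 in limma's test over all rows. They read the alpha-1-antitrypsin paralogs together, and neither was called, like Serpina1c and Serpina1d with rows of their own. The 3 rows with 4 Serpinb9 symbols, Serpinb9d among them, differed by 0.26, 0.08 and 0.06 and were not called. The middle one had a single rescued array, replicate 1, at 6.37 where the other 3 were at 4.66 to 5.13.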
